A study of Solanum lycopersicum var. cerasiforme with 6 samples.

Results

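Reads from tomato pericarp were assembled by the authors into 31571 entries, and 5173 of these (regions of the genome with transcripts but without any gene of the ITAG2.3 annotation, over a span longer than 300 bp) are described here. The members were picked by these criteria, with no bound on level or change. However, an entry without a gene could only come from reads assembled in these libraries, so some level in a group lay behind it. A further 721 entries had no annotated gene but a span of 300 bp or less and were left out, while 24556 entries carried a single gene and 1121 carried several. Pericarp of the cherry tomato cultivar 'XinTaiyang' came from fruits that were picked at the mature green stage and injected with 25 μL of 10 mM ABA (ABA), 1 mM NDGA (NDGA) or distilled water (CK), then kept in the dark until day 9. NDGA is nordihydroguaiaretic acid, which inhibits ABA biosynthesis. The 3 groups had 2 libraries each, with 10 fruits pooled per library and the libraries of a group made from batches harvested in successive weeks. Poly(A) RNA was selected, and strand was not recorded in the values. All groups shared the cultivar, the stage, the injected volume and the sampling day, and fruits without an injection were not analysed here.

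Polyadenylated transcripts outside annotated genes can be long non-coding RNAs, genes that the annotation missed, remnants of transposable elements, or stretches of a neighbouring gene such as an unannotated end of its last exon. Non-coding RNAs are often expressed at low levels and in few tissues, and some act on nearby genes while many have no known role. ABA is the hormone of drought response and seed dormancy, and it also rises in tomato fruits ahead of the ethylene burst that drives ripening. A table of levels cannot tell these kinds of transcript apart, so the members are called here by their entry names and by the genes beside them.

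Every value was the authors' mean FPKM (fragments per kilobase of transcript, scaled to the mapped fragments) of the 2 libraries of a group. There was a single value per entry and group, so no test, error or n can be given, and no difference below could be compared with the spread between libraries. "Rose" and "fell" mean at least 2-fold above or below CK in entries above 0 in both groups, and nothing more. The fruits bore the marks of ripening pericarp: PSY1, which makes the first carotenoid precursor, was at 2795 FPKM in CK, 5451 in ABA and 1339 in NDGA. However, PG2a, the ripening polygalacturonase, was at 10575 FPKM in CK and 2309 in NDGA but listed at 0 in ABA, so a listed 0 is not read as absence. Although seeds had been discarded, all 13 entries annotated as oleosin or vicilin (seed storage genes) were above 0 in every group, and their summed level was 4754 FPKM in NDGA against 1995 in CK and 1869 in ABA.

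The span given for an entry was often not its own. Only 1197 members (23.1%) had a span that no other entry shared, while 2606 (50.4%) lay in 1158 spans shared with other members and 1370 (26.5%) in 878 spans that also held an annotated entry. Among entries with a single gene, 64.1% had a span of their own. Distinct spans never overlapped, so a span is a merged region with 1 or more entries, and the length bound acted on the region, not on the transcript. In 955 of the shared spans there were exactly 2 members, and since strand was not given, reads of transcripts that overlap on opposite strands cannot be told apart. Members of the same span are not independent of each other.

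A few regions held many members. The most crowded lay on chromosome 1 from 84548756 to 84669998 (build SL2.40) and packed 42 members among 49 entries, with mean levels over the 3 groups from 0.383 to 11.0 FPKM. Of its 33 members with an ABA ratio, 9 rose (27.3%) and 5 fell (15.2%), near the 24.0% and 18.4% of all members, where 9.59% and 13.9% of all entries did. With NDGA, 9 of 33 rose (27.3%) and 2 fell (6.06%), beside 26.6% and 12.9% of all members and 14.2% and 6.22% of all entries. On chromosome 12, 25 members shared 46738190 to 46855891, where 7 of 23 rose and 4 fell with ABA, whereas 3 rose and 7 fell with NDGA. A region of 230200 bp on chromosome 2 held 15 members, and 6 of 12 rose and 1 fell with ABA, while 5 of 10 rose and 2 fell with NDGA.

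Members with a span of their own were short, with a median of 517 bp (quartiles 405 and 754 bp), and 84.4% of them spanned 1000 bp or less. Single-gene entries with a span of their own had a median of 3500 bp. Over all members the median was 1704 bp, because spans shared with annotated entries had a median of 9344 bp and reached 557589 bp. That longest span, on chromosome 10 from 63963192 to 64520781, joined 68 entries. Its member XLOC_036615 stood at 58.4, 57.0 and 46.1 FPKM in CK, ABA and NDGA, and its member XLOC_036601 at 0.163, 0.539 and 0 FPKM. The next longest, on chromosome 4 from 8708246 to 8991713, held XLOC_016438 at 8.84, 12.9 and 14.3 FPKM in CK, ABA and NDGA. XLOC_014788 in the same region was at 3.46, 3.26 and 2.51 FPKM, and XLOC_016800, in 275156 bp further along that chromosome, at 1.19, 1.44 and 3.95 FPKM. Apart from XLOC_036615, these members of the longest regions stayed below 15 FPKM. At the length bound, 6 members spanned 301 bp and had medians of 0.157, 0 and 1.79 FPKM in CK, ABA and NDGA, beside 1.13, 0.208 and 6.05 FPKM for the 8 entries of 300 bp just outside it.

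Members were found on every chromosome in rough proportion to the genes. Chromosomes 1 to 12 held between 339 (chromosome 11) and 607 (chromosome 1) members, or 16.7 members per 100 single-gene entries on chromosome 3 up to 25.4 on chromosome 8. Chromosome 0, which collects the unplaced scaffolds, stood apart with 66.2 per 100, although it held only 153 members. The median over members of the mean level lay between 0.891 FPKM (chromosome 1) and 1.27 FPKM (chromosome 4). Chromosomes thus differed little in the level of their members.

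Many members lay close to annotated entries, but by median those outside annotated spans were farther off than genes were from each other. The median distance to the nearest annotated entry was 2212 bp, with the 1370 members in annotated spans counted as 0. Outside annotated spans it was 5260 bp (upper quartile 24583 bp). Single-gene entries with their own span had a median of 1948.5 bp to the nearest other annotated entry (upper quartile 5697 bp). By class, 766 members (14.8%) lay within 1 kb, 1104 (21.3%) at 1 to 5 kb, 879 (17.0%) at 5 to 20 kb and 1054 (20.4%) beyond 20 kb. Within 100 kb, a member had a median of 6 annotated spans, whereas a single-gene entry with its own span had 16. Members thus sat in regions with fewer annotated spans, but a span counted once however many genes it held. Mean levels of at least 10 FPKM were reached by 11.8% of members in annotated spans and by 4.74% of those beyond 20 kb, with 6.66%, 9.96% and 7.17% in the classes between. The nearest annotated entry had no annotation text for 32.7% of members, against 16.2% of single-gene entries with their own span. Counted once each, 28.1% of the 2380 distinct neighbours of members had no text. Transposon words stood in the annotation of the neighbour of 78 members (1.51%, or 1.22% of the distinct neighbours), against 0.591% for single-gene entries with their own span.

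Levels were low. In CK 4320 members (83.5%) were above 0, with a median of 1.04 FPKM and quartiles of 0.468 and 2.68. In ABA 4344 (84.0%) were above 0, with a median of 1.19 FPKM, and in NDGA 4778 (92.4%), with a median of 1.24 FPKM. Medians of single-gene entries were 7.28, 7.0 and 7.27 FPKM in CK, ABA and NDGA, so the members lay well below genes in every group. At least 10 FPKM was reached by 343 members (6.63%) in CK, 404 (7.81%) in ABA and 428 (8.27%) in NDGA, against 40.3%, 39.8% and 41.8% of single-gene entries. Members with their own span were lower still, with medians of 0.729, 0.837 and 0.998 FPKM.

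**Figure D1:**
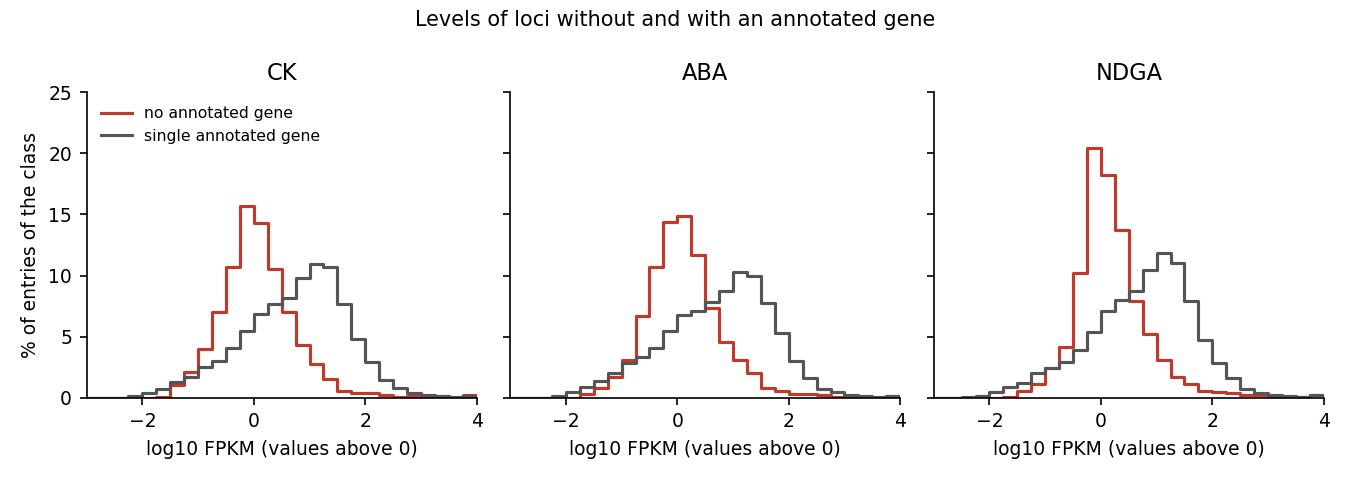
Share of entries (vertical axis, % of the class) by log10 FPKM (horizontal axis, narrow bins, values beyond either end in the end bins) in CK, ABA and NDGA, for the 5173 members (red) and the 24556 entries with a single gene (grey), with listed zeros not drawn. In each group the members peak near 1 FPKM (medians 1.04, 1.19 and 1.24) and the genes near 10 FPKM.

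Presence differed most in NDGA. Above 0 in all 3 groups were 3722 members (72.0%, against 85.9% of single-gene entries). Another 386 members (7.46%) were above 0 in NDGA alone, 152 (2.94%) in ABA alone and 88 (1.70%) in CK alone. Over all entries these shares were 5.04%, 2.15% and 1.76%, so the members above 0 in CK alone were near the share of all entries. Among single-gene entries the share for NDGA alone was 3.97%. Of the 853 members listed at 0 in CK, 701 (82.2%) were above 0 in NDGA, where 78.6% of all such entries were, and 467 (54.7%) in ABA, beside 49.9% of all such entries. Conversely, 443 of the 4320 members above 0 in CK (10.3%) were listed at 0 in ABA, against 6.41% of all entries, and 243 (5.62%) in NDGA, against 3.58%. The number of fragments behind each value was not known, and the seed entries were highest in NDGA as well, so the part of depth or of seed RNA in the NDGA counts was not tested.

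The highest listed values were mostly unstable between groups. Of the 52 members with 1000 FPKM or more in any group, 37 (71.2%) were listed at 0 in another group, against 33 of 212 (15.6%) single-gene entries and 195 of 502 (38.8%) of all entries. XLOC_020154, in a region of 1995 bp on chromosome 5, was listed at 2390000 FPKM in NDGA and at 0 in CK and ABA. A value above 1000000 FPKM can only arise when the length entering the FPKM is below 1 kb, so the span of such an entry is not the length behind its level. XLOC_031685 on chromosome 9 was at 988672 FPKM in CK alone, XLOC_008238 on chromosome 2 at 608187 FPKM in NDGA alone, and XLOC_001272 on chromosome 1 at 120585 FPKM in CK alone. XLOC_034776, in the span of the methionine adenosyltransferase 3 gene Solyc10g083970.1, whose enzyme makes the S-adenosylmethionine used for ethylene, was at 62230 FPKM in CK and at 0 in ABA and NDGA. The gene itself was at 51.3, 23.7 and 56.0 FPKM. Such values are given as listed, and none of them is read as a response.

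Other members with very high values were also listed at 0 in a group. XLOC_005890 on chromosome 1 was listed at 84651 FPKM in NDGA alone, and XLOC_017145, in the span of a TGACG motif-binding factor gene on chromosome 4, at 23072 FPKM in ABA alone. XLOC_037873 on chromosome 11 was at 0 in CK, 9619 FPKM in ABA and 30018 in NDGA. Each of these members had at least 1 listed 0. XLOC_014720 was at 116328, 0 and 294442 FPKM in CK, ABA and NDGA, and its span partner XLOC_014719, on chromosome 4 from 6362809 to 6384299, at 26512, 12102 and 28185 FPKM. XLOC_032487 on chromosome 9 was at 10020, 5116 and 19927 FPKM. XLOC_014719 and XLOC_032487 had the highest means of the members above 0 in every group, and they lay 78661 and 205325 bp from the nearest annotated entry. Of the members at 0 in ABA alone, XLOC_014663 had 10233 FPKM in CK and 806 in NDGA, and XLOC_007401 had 1173 and 6634. Of those at 0 in NDGA alone, XLOC_007771 had 2623 FPKM in CK and 6780 in ABA, XLOC_001640 had 1662 and 477, and XLOC_008036 had 42.0 and 876. A listed 0 beside values this large was treated as for PG2a above.

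Abundant members with a span of their own and values above 0 in every group also existed. The highest of these by mean level follow, a choice made after their values were seen. XLOC_012978, a region of 573 bp on chromosome 3 and 1502 bp from the nearest annotated entry, was at 1109 FPKM in CK, 396 in ABA and 713 in NDGA. XLOC_039432 on chromosome 11 was at 120 FPKM in CK, 396 in ABA and 612 in NDGA, above CK in both treatments. XLOC_005549 on chromosome 1 was at 232, 270 and 221 FPKM, and XLOC_034865 on chromosome 10 at 167, 223 and 188 FPKM. The last 2 passed the threshold in neither treatment. Over the 3722 members above 0 in every group, the highest group value exceeded the lowest less than 2-fold in 1407 (37.8%) and at least 10-fold in 454 (12.2%), whereas for single-gene entries these shares were 65.8% and 4.64%. With a mean of at least 1 FPKM they were 48.1% and 9.25% of members and 72.7% and 2.88% of single-gene entries.

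With ABA, more members rose than fell, while among genes more fell. Of the 3877 members with a ratio, 929 (24.0%) rose and 715 (18.4%) fell, where 9.59% of all entries rose and 13.9% fell. Single-gene entries had 1461 rises (6.84%) and 2829 falls (13.3%) among 21348. Falls thus made up 43.5% of the changed members and 65.9% of the changed single-gene entries. The median log2 ratio to CK was 0.14 in members (quartiles -0.68 and 0.95), 0.01 in single-gene entries and 0.02 in all entries. With a pseudocount of 0.1 or 1, which brings in the members listed at 0 and also shrinks the ratios of low members, the members' median was 0.02 or 0.01. An entry without a gene could enter through the group where it was high, whereas single-gene entries carried a gene of the annotation. Members above 0 in CK but listed at 0 in ABA had a median of 0.82 FPKM in CK, against 0.17 FPKM for such single-gene entries. The part of this in the contrast of rises and falls, with ABA or NDGA, was not tested.

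With NDGA, rises exceeded falls in members and genes alike. Of 4077 members, 1083 (26.6%) rose and 525 (12.9%) fell, where 14.2% of all entries rose and 6.22% fell. Single-gene entries had 2631 rises (12%) and 1086 falls (4.95%) among 21933, so falls were 32.6% of the changed members and 29.2% of the changed single-gene entries. The median log2 ratio was 0.24 in members, 0.05 in single-gene entries and 0.06 in all entries. As the seed entries were also highest in NDGA, their part in these rises was not tested. Set directly against each other, 778 of 4037 members (19.3%) were at least 2-fold higher in ABA than in NDGA and 1131 (28.0%) lower, where 10.1% of all entries were higher and 21.4% lower.

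Low values carry more counting noise, and members were mostly low, so each class was also read within bands of mean level. A band of FPKM does not equalise the number of fragments, which was not known. Spans of their own had a median of 517 bp in members and 3500 bp in single-gene entries, so noise may differ between the classes within a band. Below 1 FPKM, 28.9% of members rose and 24.0% fell with ABA, against 18.2% and 30.0% of single-gene entries. Between 1 and 10 FPKM these shares were 20.1% and 14.3% of members and 6.85% and 16.5% of single-gene entries. Between 10 and 1000 FPKM they were 19.9% and 12.6% of 326 members, and 2.89% and 4.83% of 9867 single-gene entries. Hence rises outnumbered falls among members, and falls outnumbered rises among genes, in all these bands. Over all members with a mean of at least 1 FPKM, 20.1% rose and 14.1% fell with ABA, where 6.70% and 10.5% of all entries did. With NDGA these shares were 18.3% and 10.9% of members, where 8.79% and 4.13% of all entries rose and fell. In the band of 1 to 10 FPKM with NDGA, 18.4% of members rose and 11.0% fell, against 12% and 4.41% of single-gene entries, and from 10 to 1000 FPKM 17.3% and 9.55% against 3.51% and 1.79%. Both directions were more frequent in members there, while below 1 FPKM 36.6% of members and 33.3% of single-gene entries rose with NDGA.

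**Figure D2:**
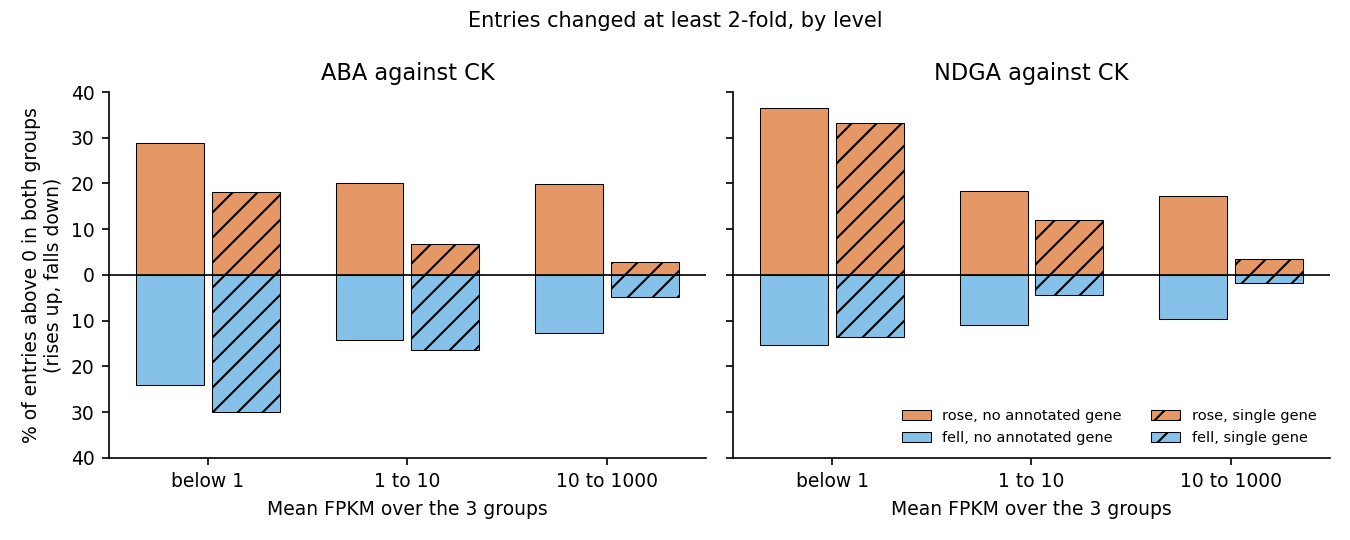
Entries that rose (upward bars) or fell (downward bars) at least 2-fold against CK, as % of entries above 0 in both groups (vertical axis), by mean FPKM over the 3 groups (horizontal axis), for members (plain) and single-gene entries (hatched). With ABA the upward bar exceeds the downward bar for members in each band (20.1% and 14.3% at 1 to 10 FPKM) and the reverse holds for single-gene entries (6.85% and 16.5%).

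Spans and chromosomes gave the same order of rises and falls. Among members with a span of their own, 194 rose and 144 fell with ABA (of 625), and 262 rose and 121 fell with NDGA (of 698). Members sharing spans with other members counted 491 rises and 368 falls with ABA (of 2155), and those in annotated spans 244 and 203 (of 1097). Over all entries 9.59% rose and 13.9% fell with ABA. For NDGA the corresponding counts were 573 and 250 (of 2273), and 248 and 154 (of 1106). Rises with ABA exceeded falls on each of chromosomes 1 to 12, from 121 against 90 on chromosome 1 to 72 against 35 on chromosome 5, while chromosome 0 had 19 rises and 23 falls. With NDGA, rises exceeded falls on all 13, as they did over all entries (14.2% and 6.22%). Shorter spans held larger shares of changed members: 34.9% of members of 301 to 500 bp rose with ABA and 39.4% with NDGA, compared with 21.1% and 21.6% above 5000 bp.

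Members that shared a span tended to move together. In 699 of the 955 spans with exactly 2 members, both were above 0 in every group. Their levels were close, with a median ratio of 1.29 between the higher and the lower, and 565 pairs lay within 2-fold. The signs of their ratios were the same in 516 pairs (73.8%) with ABA and in 505 (72.2%) with NDGA, and the Spearman correlation across these 699 spans was 0.53 and 0.50. Between member spans less than 1 kb apart, the sign was shared by 106 of 174 pairs (60.9%) with ABA and 103 of 193 (53.4%) with NDGA. All pairs share the same libraries, and pairs within a span may share reads.

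The direction of the nearest gene was related to that of the member only loosely. Where a span held several annotated entries, the one with the highest mean was taken as the neighbour. Among members changed at least 2-fold with ABA, 842 of 1435 neighbours (58.7%) lay on the same side of CK as the member. By distance this share was 60.4% in shared spans, 59.8% within 1 kb, 63.7% at 1 to 5 kb, 55.2% at 5 to 20 kb and 50.7% beyond 20 kb. With NDGA it did not decline with distance, at 54.2%, 57.3%, 60.5%, 59.0% and 54.5% in the same classes. Neighbours lay above CK beside 60.9% of the members that rose and 44.1% of those that fell, but beyond 20 kb these shares were 52.6% and 51.4%. With NDGA the same side was taken by 801 of 1406 neighbours (57.0%), and neighbours were above CK beside 57.4% of risen and 43.9% of fallen members. For single-gene entries with their own span, the share on the same side as their nearest annotated entry was 53.0% with ABA and 56.2% with NDGA. Across 3365 members the Spearman correlation of the ratios of member and neighbour with ABA was 0.16, and across 3614 members with NDGA it was 0.10, over entries that share libraries.

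**Figure D3:**
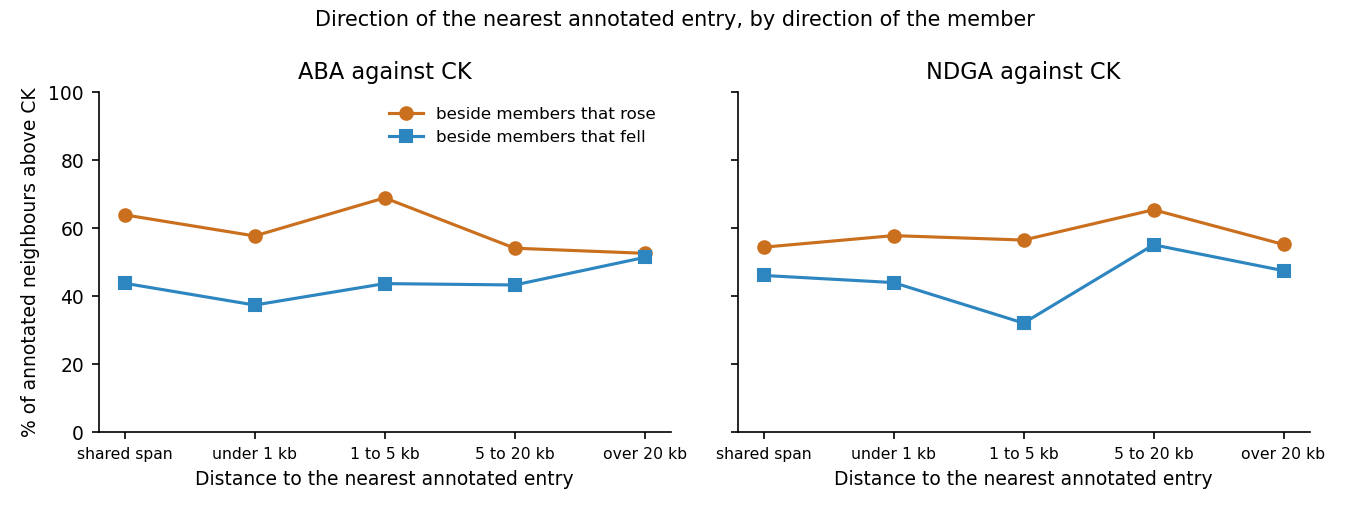
Percentage of nearest annotated entries lying above CK (vertical axis), beside members that rose (circles) and members that fell (squares) at least 2-fold, by distance class (horizontal axis). With ABA the lines are apart up to 20 kb (68.9% and 43.7% at 1 to 5 kb, 54.1% and 43.3% at 5 to 20 kb). They meet beyond 20 kb (52.6% and 51.4%), and with NDGA the widest gap is also at 1 to 5 kb (56.5% and 32.1%).

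Near ripening regulators the members were few, and most of their changes came from a single locus. Within 5 kb of the 8 loci that the authors list as ripening-related TFs lay 13 members, and of the 12 with a ratio 7 rose and 0 fell with ABA (median log2 ratio 1.12), whereas 1 rose and 5 fell with NDGA (median -0.88). Over all entries 9.59% rose and 13.9% fell with ABA, and 14.2% rose and 6.22% fell with NDGA. The members beside NOR gave 6 of the 7 rises with ABA and 4 of the 5 falls with NDGA, and of the other 4 with a ratio, 1 rose and 0 fell with ABA, and 1 rose and 1 fell with NDGA. The list came from the study of these same libraries, so it is not independent evidence of a direction. Most of the 13 stood beside NOR (Solyc10g006880.2), the NAC transcription factor whose loss blocks ripening. That gene, on chromosome 10 from 1305619 to 1308574, was at 881 FPKM in CK, 1126 in ABA and 592 in NDGA. From 167 to 4771 bp beyond its upper coordinate followed 8 members on 4 spans, up to position 1313777. They ranged from 6.21 to 16.9 FPKM in CK, 16.7 to 38.5 in ABA and 2.89 to 8.26 in NDGA. Of these 8, 6 rose with ABA and 4 fell with NDGA, at log2 ratios of 0.50 to 2.62 and -1.82 to 0.17.

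The nearest to NOR were XLOC_033417 at 6.68, 26.5 and 3.84 FPKM and XLOC_035059 at 16.9, 38.5 and 7.72 FPKM in CK, ABA and NDGA, in the same span of 414 bp. Next came 3 members of a span of 2372 bp, among which XLOC_035060 was at 16.9, 23.8 and 4.96 FPKM. XLOC_033418 in that span was at 10.2, 16.7 and 2.89 FPKM, and XLOC_035061 at 8.02, 16.7 and 3.14 FPKM, so ABA was the highest and NDGA the lowest group for all 5. At 3719 bp lay XLOC_035062 with 12, 27.2 and 8.26 FPKM and XLOC_033419 with 7.18, 29.2 and 8.08 FPKM, the only member of the group with NDGA above CK. The farthest, XLOC_035063, had a span of its own and rose most, from 6.21 FPKM in CK to 38.2 in ABA, with 4.21 in NDGA. ABA was thus the highest group in all 8, as in the gene, and the fold to CK was larger than that of the gene (log2 ratio 0.35) in each. Whether they are ends of the gene or separate transcripts was not tested.

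**Figure D4:**
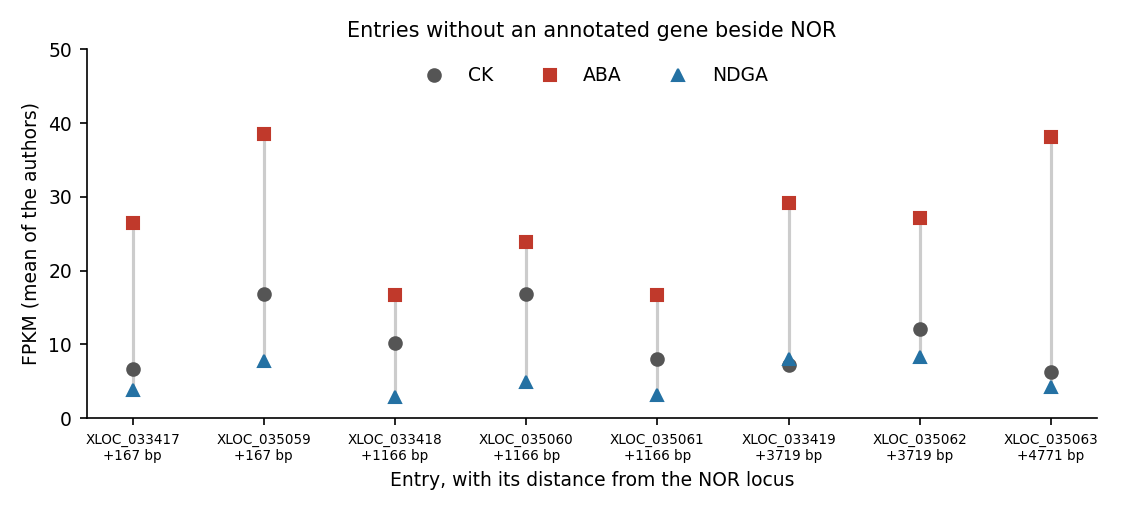
FPKM (vertical axis, the authors' means) of the 8 members beside the NOR gene in CK (circles), ABA (squares) and NDGA (triangles), ordered by distance from the gene (horizontal axis, 167 to 4771 bp). ABA is the highest group for every member (16.7 to 38.5 FPKM), and NDGA the lowest for all but XLOC_033419.

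The remaining members near ripening TFs were lower. XLOC_023620 and XLOC_021850 had their own spans beside Solyc06g069430.2, annotated as AGAMOUS-like 8 (a MADS-box factor), which was at 446 FPKM in CK, 920 in ABA and 232 in NDGA. XLOC_023620 was at 2.73, 9.53 and 1.30 FPKM in these groups, in the same order as the gene, although another gene, Solyc06g069420.2, lay closer to it (199 bp). XLOC_021850 was at 1.42, 1.53 and 0.724 FPKM. XLOC_018018, 286 bp from the entry that holds RIN (the MADS-box regulator of ripening), was at 1.23 FPKM in CK and at 0 in ABA and NDGA, so it gave no ratio. On chromosome 7, XLOC_026893 and XLOC_025306 shared the span 61175306 to 61184003 and were at 2.54, 1.93 and 4.43 FPKM and at 1.38, 1.24 and 3.38 FPKM. This pair did not follow the pattern by NOR.

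Within 5 kb of a span that held an ethylene-related gene lay 38 members. Of these, 7 of 28 (25%) rose and 3 (10.7%) fell with ABA, and 4 of 24 (16.7%) rose and 6 (25%) fell with NDGA. Distance was taken to the span, so a member may lie far from the gene, as XLOC_036615 may in its span of 557589 bp. For ABA the share of rises was near that of all members (24.0%, with 9.59% of all entries), and for NDGA 26.6% of all members and 14.2% of all entries rose, while 12.9% and 6.22% fell. The most abundant pair with values in all groups shared a span on chromosome 9 from 64653656 to 64654358, which was 4539 bp from E8 (Solyc09g089580.2), an ethylene-responsive ripening gene of the oxoglutarate-dependent oxygenases. XLOC_031548 was at 120.5, 234 and 56.6 FPKM in CK, ABA and NDGA, and XLOC_033128 at 110.1, 206 and 50.3 FPKM. Both fell with NDGA (log2 ratios -1.09 and -1.13) and lay just short of the fold threshold with ABA (0.96 and 0.91). E8 itself was at 11339 FPKM in CK and 7166 in NDGA and was listed at 0 in ABA, so that its direction with ABA could not be read. XLOC_023157, 198 bp from the ethylene receptor gene Solyc06g053710.2, rose with both treatments from 0.335 FPKM to 2.44 and 3.25 FPKM, whereas the gene was at 390, 445 and 253 FPKM in CK, ABA and NDGA. In the span of the kinase kinase gene Solyc03g123800.1, XLOC_012207 fell with ABA, from 2.21 to 1.03 FPKM, and was at 1.83 FPKM in NDGA, while the gene was at 91.6, 117 and 74.0 FPKM.

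Likewise, 24 members lay within 5 kb of a span that held an ABA-related gene. With ABA 6 of 18 rose (33.3%) and 3 fell (16.7%), and with NDGA 5 of 20 rose (25%) and 3 fell (15%). Of all members 24.0% rose and 18.4% fell with ABA, and 26.6% rose and 12.9% fell with NDGA (9.59%, 13.9%, 14.2% and 6.22% of all entries). The members near ABA-related genes were too few for a difference in shares to be read. Of these members, 16 lay in the span of an annotated entry. A single span on chromosome 1, from 87162886 to 87194450, held 11 of the 24, and these are not independent of each other. XLOC_042603, in the span of Solyc12g055990.1 (annotated as regulatory component of ABA receptor 1), rose with ABA from 5.06 to 10.7 FPKM and was at 5.41 FPKM in NDGA. The higher entry of the gene was at 42.5, 60.3 and 31.4 FPKM in CK, ABA and NDGA, and its other entry at 1.07, 1.26 and 1.16 FPKM. XLOC_029988, 22 bp from the kinase gene Solyc08g077780.2, fell with ABA from 7.76 to 0.361 FPKM and was at 14.5 FPKM in NDGA, while that gene hardly varied (44.9, 36.3 and 35.3 FPKM). XLOC_030476, 582 bp from the bZIP factor gene Solyc09g009490.2, was at 1.82, 2.73 and 2.53 FPKM and passed the threshold in neither treatment. Within 5 kb of spans that held TFs in general lay 338 members, 164 of them in annotated spans. With ABA, 82 of 269 (30.5%) rose and 40 (14.9%) fell, beside 24.0% and 18.4% of all members. Their median log2 ratio with ABA was 0.35, against 0.14 in all members. With NDGA, 83 of 278 (29.9%) rose and 33 (11.9%) fell, near the 26.6% and 12.9% of all members.

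The largest rises with ABA started from low levels in CK and included 1 extreme value. XLOC_003612 on chromosome 1 went from 2.24 FPKM in CK to 5924 in ABA, with 2.56 in NDGA. XLOC_025912, a region of 494 bp on chromosome 7 that lay 1115 bp from a basic chitinase gene (Solyc07g009530.1, a defence enzyme that degrades chitin), was at 2.22, 72.4 and 17.4 FPKM in CK, ABA and NDGA. The chitinase gene was at 1643, 2201 and 1969 FPKM, so it moved far less than the member. XLOC_032799 on chromosome 9 was at 8.07, 255 and 32.7 FPKM, and XLOC_038961 on chromosome 11, 142339 bp from any annotated entry, at 0.509, 13.3 and 6.42 FPKM. XLOC_006067, 2395 bp from the SAUR-like auxin-responsive gene Solyc01g110660.2, rose with both treatments, from 0.438 FPKM to 26.2 in ABA and 44.7 in NDGA. Its gene was at 1.39, 2.00 and 2.95 FPKM, lower than the member in both treatments.

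Among the largest falls with ABA, XLOC_032259 on chromosome 9 went from 8617 FPKM in CK to 5.31 in ABA and 4.97 in NDGA, and was also the largest fall with NDGA. Both of its ratios rest on the same extreme CK value, so they are not read as 2 responses. XLOC_014533, with its own span 4187 bp from a phosphoenolpyruvate carboxylase kinase gene (Solyc04g009900.2), went from 10.2 FPKM in CK to 0.25 in ABA and was at 34.3 in NDGA. That gene was at 4.50, 7.71 and 5.61 FPKM, opposite to the member in its ABA direction. XLOC_026325 on chromosome 7 was at 6.78, 0.596 and 14.8 FPKM, and XLOC_021917, in the span of a xanthine/uracil permease gene (Solyc06g071330.2), at 540, 48.6 and 148 FPKM. The permease gene was at 5.07, 2.17 and 8.12 FPKM, far below the member of its span.

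With NDGA, the largest rises after XLOC_006067 included members whose own span also held a gene that was almost level. XLOC_035050, in the span of the kinase gene Solyc10g006790.2, was at 3.59, 8.36 and 94.7 FPKM in CK, ABA and NDGA, and that gene was at 11.1, 10.3 and 9.41 FPKM. XLOC_017197, in the span of a pentatricopeptide repeat gene (Solyc04g074160.1, a family of organelle RNA-binding proteins), was at 1.96, 6.85 and 47.3 FPKM beside 3.02, 2.95 and 2.97 FPKM for the gene. XLOC_007937 on chromosome 2 was at 1.40, 1.85 and 35.7 FPKM, and XLOC_001647, in a span of 6 entries on chromosome 1, at 4.77, 35.9 and 90.6 FPKM. NDGA was the highest group in each of these. Among the largest falls with NDGA, XLOC_025840 on chromosome 7 was at 5.27, 21.0 and 0.335 FPKM, XLOC_014714 on chromosome 4 at 5.13, 14.0 and 0.572 FPKM, and XLOC_030781 on chromosome 9 at 11007, 13718 and 849 FPKM. In all of these ABA was the highest group. XLOC_032051, a span of 476 bp on chromosome 9 from 3686932, was at 28.7, 116 and 2.32 FPKM, and the member next to it, XLOC_032052, chosen after its values were seen, at 38.8, 203 and 8.33 FPKM. Both rose with ABA and fell with NDGA, whereas the nearest gene, Solyc09g010300.2 (annotated as decapping 1, part of mRNA turnover), was at 25.6, 28.6 and 24.6 FPKM.

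Some members moved in opposite directions with the treatments, and since both ratios use the same CK value, the levels are given side by side. XLOC_011219, a region of 308 bp on chromosome 3 from 47410944 to 47411252, was at 16.3 FPKM in CK, 118 in ABA and 2.4 in NDGA (log2 ratios 2.85 and -2.77). The gene nearest to it, 5543 bp away, was Solyc03g083920.1, annotated as FAR1-related sequence 5 (a transposase-derived transcription factor family of light signalling), and it was at 29.3, 127 and 3.98 FPKM. Member and gene thus had the same order and similar ratios. XLOC_013658, 2035 bp from the pectin methylesterase inhibitor gene Solyc03g112170.1, whose product slows demethylation of cell wall pectin, was at 0.553, 3.89 and 0.111 FPKM beside 1.64, 18.2 and 0.334 FPKM for the gene. XLOC_008748, in the span of a methyl esterase 1 entry (386, 1949 and 79.0 FPKM), was at 2.00, 10.8 and 0.132 FPKM. XLOC_027498 on chromosome 8 was at 0.506, 3.54 and 0.0841 FPKM and XLOC_032294 on chromosome 9 at 1.18, 6.18 and 0.240 FPKM, with neighbours at 0.248 FPKM or less in every group.

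In the reverse direction, XLOC_033262 on chromosome 9 was at 36.0 FPKM in CK, 8.58 in ABA and 161 in NDGA. XLOC_031704, which shares its span of 66694263 to 66694859 and was chosen after its values were seen, was at 39.5, 11.2 and 183 FPKM. The nearest gene, 5721 bp away and annotated as an HSP20-like chaperone (Solyc09g092210.2), was at 2.28, 4.27 and 3.55 FPKM. XLOC_031746, 239 bp from the bHLH factor gene Solyc09g097870.2, was at 0.775, 0.104 and 2.83 FPKM, in the same order as that gene at 7.70, 1.87 and 12.9 FPKM. XLOC_039218 on chromosome 11 was at 1.67, 0.131 and 8.13 FPKM, 7732 bp from a beta-xylosidase gene (Solyc11g044910.1, a cell wall enzyme) at 32.3, 16.0 and 33.3 FPKM. XLOC_005857 on chromosome 1 was at 0.596, 0.0705 and 2.81 FPKM, and XLOC_017242, in the span of the MATE transporter gene Solyc04g074840.2, at 1.52, 0.339 and 8.23 FPKM. The transporter gene was at 1087, 931 and 477 FPKM and so was lowest where its member was highest.

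**Figure D5:**
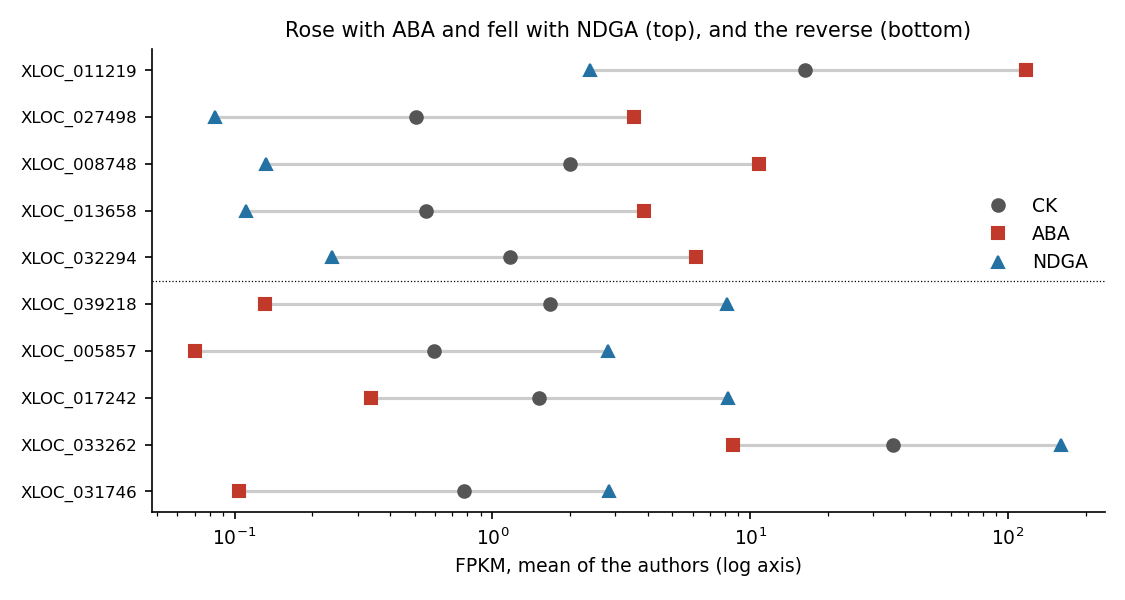
FPKM (horizontal log axis, the authors' means) in CK (circles), ABA (squares) and NDGA (triangles) of the 5 members that rose with ABA and fell with NDGA most (top) and of the 5 with the reverse (bottom). XLOC_011219 spans 2.4 to 118 FPKM and XLOC_033262 spans 8.58 to 161 FPKM, while the other members stay below 11 FPKM.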

How the data were processed

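RNA-seq of pericarp from 6 libraries (CK, ABA and NDGA, 2 each) was analysed. According to the submitters' processing notes and the study's methods, reads were aligned with TopHat2 2.0.9 to SL2.40 and quantified with Cufflinks 2.1.1 on ITAG2.3. The deposited values are FPKM, which the authors averaged over the 2 replicates of a group. Values per library were not analysed here, so no test, interval or paired fit was possible. The study gives mapped reads per library, which are not repeated here, but the number of fragments behind each averaged FPKM is unknown, and the number of unused columns of single samples was 0. Columns of the authors' calls were not used.

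Entries without a gene and with a span (end minus start, as the files give it) above 300 bp were kept. Changes were log2 ratios to CK without pseudocount, counted at 2-fold, over entries above 0 in both groups. Distances ignore strand. The members, the lists and the rule for named members were chosen with earlier results of these data known. Named were the 5 largest rises and falls per comparison (mean of at least 5 FPKM, above 0 in all groups), the 10 highest means, the 5 opposite movers each way (mean of at least 1), members at 0 in a group with the highest means, the 5 longest, those at the length bound, and those within 5 kb of the authors' lists of ABA-related and ethylene-related genes and ripening-related TFs, of which the text gives a part. The smaller lists differed from the table of all entries in 0 values. Alternatives were bounds on level, length and distance, pseudocounts of 0.1 and 1, a log2 threshold of 1.5, rescaling to a median ratio of 0 and leaving out chromosome 0. Members with their own span, members outside annotated spans and members below 1000 FPKM were alternatives added after the data had been seen. Counting was tested on simulated data, where 200 of 200 changed entries were recovered with ABA and 12 of 31371 unchanged entries were called, with noise simpler than in real data. The software was matplotlib 3.10.9, scipy 1.17.1, pandas 2.3.3 and numpy 2.4.6 under Python 3.11.15.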

Additional observations from a re-analysis of the deposited data

How the results depend on the processing

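No paired analysis was possible because the files hold 1 mean per group, and no replicate could be left out for the same reason. Against 929 rises and 715 falls with ABA, a mean of at least 1 FPKM left 439 and 307, a pseudocount of 1 gave 593 and 385, a log2 threshold of 1.5 gave 613 and 436, a distance of at least 1 kb left 554 and 414, a span above 1000 bp left 536 and 476, and members with their own span (added after the data had been seen) counted 194 and 144. Against 1083 rises and 525 falls with NDGA, the same settings left 408 and 243 (mean of at least 1 FPKM), 646 and 292 (1 kb), 577 and 331 (1000 bp), and 262 and 121 (own span), while a pseudocount of 0.1 gave 1646 rises and a pseudocount of 1 gave 293 falls. Several of these settings only reduce the number of entries. Rises outnumbered falls in each pair given here. The shares of falls moved by less than 10 points under every alternative run, a tolerance set after the data had been explored. The members' median log2 ratio lay between 0.01 (pseudocount of 1) and 0.21 (own span) with ABA, against 0.14, and between 0.13 (mean of at least 1 FPKM) and 0.48 (own span) with NDGA, against 0.24. With 1 value per group, single members at low FPKM cannot be told from noise, spans are not transcript lengths, and a listed 0 may be a failed estimate.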
